A study of Mus musculus with 6 samples.

Results

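The testis-specific serine kinases are described here by 8 genes of the 22770 in the deposited count table: the kinase genes Tssk1, Tssk2, Tssk3, Tssk4, Tssk5 and Tssk6, the kinase substrate Tsks and the kinase activating co-chaperone Tsacc. They were taken by exact match of the gene name, each name had 1 row, and all 8 passed the filter on low counts that left 19776 genes. The cells were round spermatids, haploid male germ cells after meiosis, sorted by FACS from mouse testis at postnatal day 28, mostly at step 8 of spermatid development. One group carried the genotype given as Eif5a SKO and the other was wild type, with 3 libraries each. The labels name neither the promoter nor the cell type that drives the deletion, and do not say whether replicates came from separate animals, so p-values measure only the spread between these libraries. RNA was amplified by Smart-seq2, a poly(A)-primed full-length cDNA method without molecular identifiers, and sequenced as 150-base read pairs.

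Testis-specific serine kinases are protein kinases made almost only in post-meiotic male germ cells, where they act in the reshaping of the spermatid into a spermatozoon. Their catalytic domains place them near the AMPK-related kinases. They work with a substrate scaffold, TSKS, and with heat shock proteins that fold and activate them. TSACC, also called SIP, is a co-chaperone that couples TSSK6 to these heat shock proteins. Loss of several of these kinases in mice is known to impair sperm shape, sperm movement or male fertility. Eif5a encodes the translation elongation factor eIF5A, the protein that carries the modified amino acid hypusine.

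Tssk1 and Tssk2 are neighbours whose messages are alike enough to bear on how reads are assigned, so their sequences come first. In GENCODE M21 on GRCm38, Tssk1 lies at chr16:17894223-17897922 and Tssk2 at chr16:17898637-17900024, both on the plus strand, each as a single exon, 714 bases apart. Their coding sequences were identical at 81.3% of 1047 aligned bases, against 59.8% to 66.1% for every other pair of the 6 kinases. The catalytic loop, the stretch around the aspartate that every active kinase needs, is shown for 12 codons (36 bases) of each coding sequence, with capitals for the bases that differ from Tssk1.
Tssk1: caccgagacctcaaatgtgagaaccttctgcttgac
Tssk2: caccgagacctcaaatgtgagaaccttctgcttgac
Tssk3: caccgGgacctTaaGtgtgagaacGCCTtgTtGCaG
Tssk4: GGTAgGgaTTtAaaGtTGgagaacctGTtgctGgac
Tssk5: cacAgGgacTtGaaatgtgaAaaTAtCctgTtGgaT
Tssk6: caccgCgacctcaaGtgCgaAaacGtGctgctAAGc
Over these codons Tssk2 did not differ from Tssk1 at any base, while the other 4 kinases differed at 9 to 14 bases and at 1 or 2 residues. The 113-base run that Tssk1 and Tssk2 share, which holds this loop, is their longest common stretch. It lies at chr16:17894723-17894835 in Tssk1 and at chr16:17899105-17899217 in Tssk2.
shared run: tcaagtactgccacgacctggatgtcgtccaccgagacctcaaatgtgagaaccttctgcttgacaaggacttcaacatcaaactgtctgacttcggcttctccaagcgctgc
No other pair of the 6 coding sequences shared more than 14 bases in a row. Of the 100-base windows of each message, 0.7% in Tssk1 and 1.9% in Tssk2 occurred in both, so few reads of that length could have come from either gene. Of 50-base windows, 9.3% in Tssk2 were shared with Tssk1, and 3.8% in Tssk1 with Tssk2 or Dgcr2. The Tssk1 shares are of the 3700-base GENCODE model, where RefSeq gives 1451 bases. How the counting treated reads with more than 1 match is not given in the sources used here.

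Promoter windows, 250 bases before to 50 after each start, were taken from RefSeq on GRCm38.p6, where 7 of the 8 members had an entry. Tssk5 had none, so its promoter was not searched. Those of Tssk1, Tssk2 and Tsacc are shown because Tssk1 and Tssk2 are the closest pair in sequence and in pattern and Tsacc was the member that rose. In Tssk1 (chr16:17893953-17894252, plus strand) and Tssk2 (chr16:17898387-17898686, plus strand) capitals mark TGACNTCA, the cyclic AMP response element with 1 base left free, a motif chosen after these windows were seen. In Tsacc (chr3:88296950-88297249, minus strand) they mark CCAAT, at -107 and -66. A second RefSeq window of Tsacc, chr3:88296789-88297088, has CCAAT only at -227 and is not shown.
Tssk1: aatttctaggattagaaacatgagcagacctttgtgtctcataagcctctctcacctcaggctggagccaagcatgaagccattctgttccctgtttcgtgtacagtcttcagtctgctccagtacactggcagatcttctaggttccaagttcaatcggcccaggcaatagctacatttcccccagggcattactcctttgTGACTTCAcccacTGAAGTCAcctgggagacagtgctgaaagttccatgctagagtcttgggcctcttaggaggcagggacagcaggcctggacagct
Tssk2: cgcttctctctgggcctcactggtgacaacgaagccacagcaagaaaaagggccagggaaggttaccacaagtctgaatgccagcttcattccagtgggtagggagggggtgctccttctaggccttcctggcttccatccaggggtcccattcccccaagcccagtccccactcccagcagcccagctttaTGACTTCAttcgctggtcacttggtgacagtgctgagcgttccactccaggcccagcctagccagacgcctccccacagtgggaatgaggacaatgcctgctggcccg
Tsacc: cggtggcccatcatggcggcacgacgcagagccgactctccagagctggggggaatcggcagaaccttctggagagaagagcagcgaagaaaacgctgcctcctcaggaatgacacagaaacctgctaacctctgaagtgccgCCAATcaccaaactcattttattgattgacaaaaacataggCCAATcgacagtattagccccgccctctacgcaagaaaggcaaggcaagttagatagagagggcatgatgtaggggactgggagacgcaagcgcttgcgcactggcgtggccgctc
Searched on both strands, TGACNTCA was present at -48 and -35 in Tssk1 and at -58 in Tssk2, and in 8.8% of all 32851 RefSeq windows. The full element TGACGTCA, which TGACNTCA includes, was in none of the members' windows and in 1.8% of all, and TATAAA was in none of them and in 13.6% of all. TGACG, the first part of the element, occurred among members only in Tssk6, at -73, and in 20.8% of all windows. CCAAT was found in Tsacc, Tssk3 and Tssk4 and in 37.4% of all windows. These matches are descriptions of the letters and not binding sites.

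Libraries held 52055193 to 60970931 counts and 21177 to 22006 genes with a count. Eif5a itself fell from 660 ± 42.3 CPM (counts scaled to a library size of 1000000) in wild type to 6.17 ± 0.771 in SKO (mean ± SD, n = 3), with the groups far apart. The first principal component (64.6% of the variance) separated the genotypes, and the second (13.5%) set SKO replicate 3 apart from SKO replicates 1 and 2, so values without that library are given where it changed a call. Some markers of other cells moved with genotype. The 4 of 9 listed Sertoli cell markers in the table (Sertoli cells are the somatic nurse cells) summed to 0.698 to 1.99 CPM in the wild-type group. In the SKO group they summed to 46.5 to 96.6 CPM, and all 4 rose. The marker lists, like the other gene lists, were chosen with earlier results of these data known. The 9 early round spermatid markers summed to 4880 to 5550 CPM in the wild-type group, against 8050 to 8980 CPM in the SKO group (7 rose, 1 fell), and the 8 elongating spermatid markers to 4220 to 4810 and 6580 to 7120 CPM (5 rose, none fell). Of the other lists, 3 of 5 Leydig cell, 1 of 2 peritubular and vascular and 1 of 4 red blood cell markers rose, 2 of 4 spermatogonium and 1 of 3 macrophage markers fell, and of 8 spermatocyte markers 2 rose and 2 fell. The part of these shifts in the members' values was not tested.

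In Eif5a SKO spermatids the co-chaperone gene Tsacc rose 2.19-fold and the kinase gene Tssk5 fell by 1.41 on the log2 scale, while the other 5 kinase genes and Tsks did not pass the test. By edgeR's quasi-likelihood test at an adjusted p under 0.05, 1 of 8 members was higher in SKO and 1 was lower, against 21.2% and 20.9% of all genes tested, and 42.0% in either direction. In 4 of 8 members the SKO libraries and the wild-type libraries did not overlap, which was so for 55.6% of all genes. The members' median log2 fold change was 0.14, with a range from -1.41 to 1.13, beside 0.01 for all genes. Without SKO replicate 3, 3 members were higher and 2 lower (21.4% and 23.5% of all genes), and with trends of message length and GC content removed 4 were higher and 1 lower (23.0% and 18.8% of all genes). With at least 5 CPM required in 3 libraries, 2 members were higher and 1 lower (29.9% and 26.7% of the genes then tested). Scaling by library totals alone, which moved the median of all genes to -0.23 and the calls over all genes from 4185 higher and 4127 lower to 2831 higher and 5666 lower, gave Tssk1 (-0.14), Tssk3 (-0.05) and Tssk4 (-0.15) the opposite sign and Tsks a call (-0.61, adjusted p = 0.0358), so that 1 member was higher and 2 were lower (14.3% and 28.7% of all genes). In bulk libraries, fewer cells of a type and less RNA per cell cannot be told apart.

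**Figure D1:**
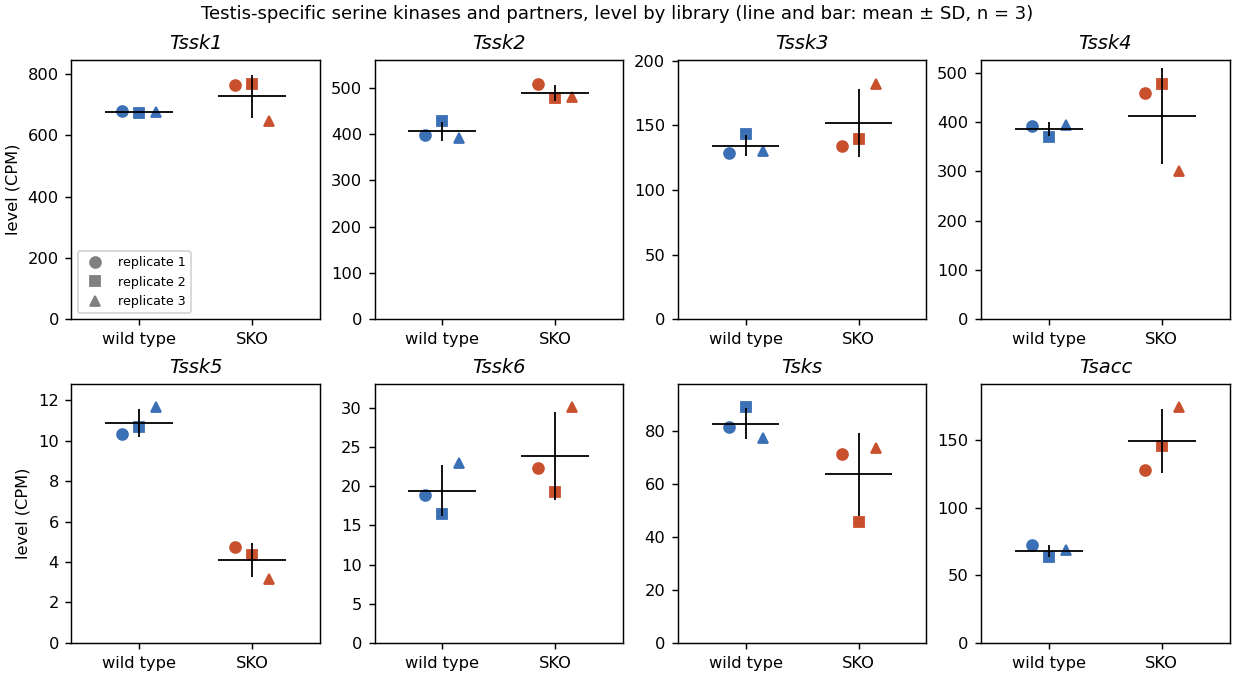
Level of each of the 8 members in CPM (linear axes from 0) in the 3 wild-type and 3 SKO libraries; symbols give the replicate number, lines and bars the mean ± SD. Tsacc and Tssk5 show wide gaps between groups, while in Tssk4 SKO replicate 3 (300 CPM) lies below every other library.

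Tssk1 and Tssk2 encode the kinases that bind TSKS in spermatids. Tssk1 stood at 680, 674 and 677 CPM in wild-type replicates 1 to 3 and at 765, 769 and 647 CPM in SKO replicates 1 to 3. SKO replicates 1 and 2 were above, and replicate 3 below, all wild-type values. The log2 fold change of Tssk1 was 0.10 ± 0.12 (SE; 95% interval -0.17 to 0.37; edgeR adjusted p = 0.526). Tssk2 stood at 398, 428 and 391 CPM in the wild-type libraries and at 509, 478 and 481 CPM in the SKO libraries, so that every SKO library was above every wild-type one. That difference, 0.27 ± 0.114 on the log2 scale (interval 0.02 to 0.53), missed the threshold at an edgeR adjusted p of 0.0832. Without SKO replicate 3 the Tssk2 value was 0.25 and passed it (adjusted p = 0.0349), in a fit that called 21.4% of genes higher.

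The length model of Tssk1 decided its value in one correction. Removing trends with message length and GC content put Tssk1 at 0.53 on the log2 scale (edgeR adjusted p = 0.00756) with the 3700-base GENCODE exon. With the 1451-base RefSeq model of the same gene, an alternative added after the data were seen, the value was 0.16 (adjusted p = 0.236). Tssk2, 1388 bases in both, came to 0.33 and passed (adjusted p = 0.0237). The log2 ratio of Tssk1 to Tssk2 counts, in which library size cancels, was 0.773, 0.656 and 0.795 in wild-type replicates 1 to 3 and 0.589, 0.687 and 0.429 in SKO. The groups overlapped, and the difference of -0.173 had an exact permutation p of 0.2, 2-sided, where 0.1 is the smallest that 3 against 3 libraries allow. Dgcr2, on the opposite strand, shares 63 bases (1.7%) of the Tssk1 exon and was at 23 ± 2.06 CPM in the wild-type group against 25.3 ± 7.36 CPM in the SKO group (0.14, edgeR adjusted p = 0.625), or at 0.66 with the length and GC correction (adjusted p = 0.0085) and -0.16 without SKO replicate 3.

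Tssk3 and Tssk4 lie on chromosomes 4 (chr4:129489014-129491022, minus strand, 2 exons) and 14 (chr14:55650184-55652539, plus strand, 4 exons). Wild-type levels of Tssk3 were 129, 144 and 130 CPM, and SKO levels were 134, 140 and 182 CPM. Only SKO replicate 3 was above the wild-type values, and the log2 fold change of 0.18 ± 0.148 (95% interval -0.15 to 0.51; edgeR adjusted p = 0.359) was -0.01 without it. Tssk4, whose product phosphorylates the tail protein ODF2, showed 393, 370 and 394 CPM in the wild-type replicates, against 458, 478 and 300 CPM in the SKO replicates. Here SKO replicates 1 and 2 lay above and replicate 3 below the wild-type libraries, which made the SKO spread (SD 97.5 CPM) several times the wild-type one (13.5 CPM). The log2 fold change of Tssk4 was 0.10 ± 0.174 (interval -0.30 to 0.48; adjusted p = 0.695), and without SKO replicate 3 it was 0.25 and passed (adjusted p = 0.0238).

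Tssk5 was the least abundant member and the only one that fell. Its locus is chr15:76371952-76374938 on the minus strand, with 8 exons in the coding transcript. Wild-type replicates 1 to 3 held 10.3, 10.7 and 11.7 CPM of Tssk5 (605, 625 and 727 counts) and SKO replicates 4.75, 4.36 and 3.15 CPM (230, 235 and 159 counts). The groups did not overlap, and SKO replicate 3 was the lowest of all. Tssk5 fell by 1.41 ± 0.204 on the log2 scale, or 2.66-fold (95% interval 1.94 to 3.65; edgeR adjusted p = 0.000603). Across every alternative run, its log2 fold change lay between -1.66 and -1.28 and passed the threshold.

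Tssk6, whose product is known for its part in exchanging histones for protamines in spermatid chromatin, is a single exon at chr8:69902184-69903518 on the plus strand. Its wild-type levels were 18.9, 16.5 and 22.9 CPM and its SKO levels 22.4, 19.2 and 30.1 CPM. The groups overlapped, and the log2 fold change was 0.30 ± 0.203 (interval -0.16 to 0.75; edgeR adjusted p = 0.268), or 0.06 without SKO replicate 3. With the length and GC correction Tssk6 came to 0.54 and passed (adjusted p = 0.0162). On the opposite strand, exons of Ndufa13, a subunit gene of mitochondrial complex I, cover 28.1% of the Tssk6 exon, and Ndufa13 rose from 93.3 ± 11.1 to 180 ± 60.9 CPM (log2 fold change 0.95, adjusted p = 0.00729). Without a stated strand setting, reads from the shared bases cannot be assigned to either gene, and the Tssk6 value is uncertain to that extent. Yjefn3, which shares 15 exon bases with Tssk6, was at 0.157 ± 0.0735 CPM in the wild-type group against 0.54 ± 0.194 CPM in the SKO group (1.77, adjusted p = 0.0465), a call that was lost whichever library was left out (1.41 to 2.19).

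Tsks, the scaffold and substrate of TSSK1 and TSSK2, spans chr7:44943204-44958035 on the plus strand with 11 exons. The wild-type replicates had 81.6, 88.9 and 77.4 CPM of Tsks, and the SKO replicates 71.4, 45.7 and 73.6 CPM. All SKO values were lower, SKO replicate 2 the lowest, yet the log2 fold change of -0.38 ± 0.188 (interval -0.80 to 0.04) gave an edgeR adjusted p of 0.132. Leaving out SKO replicate 3 moved Tsks to -0.54 (adjusted p = 0.0332), in a fit that called 23.5% of genes lower, and the length and GC correction moved it to 0.03 (adjusted p = 0.857).

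Tsacc was the only member that rose. The gene lies at chr3:88282757-88296999 on the minus strand, and its 4-exon coding transcript is 584 bases long, the shortest of the group. Wild-type replicates 1 to 3 had 72.4, 63.7 and 68.6 CPM of Tsacc and SKO replicates 128, 146 and 174 CPM, with no overlap. It rose 2.19-fold (95% interval 1.74 to 2.76; log2 1.13 ± 0.149; edgeR adjusted p = 0.00037), and passed the threshold under every alternative run, at log2 values from 0.82 to 1.21. Short messages were higher in SKO in general: in the bin of the shortest 1600 autosomal coding genes, which holds Tsacc, the median log2 fold change was 0.60 and 49.5% of genes were higher. The lowest Tsacc value, 0.82 (adjusted p = 0.000368), was that with length and GC trends removed. Exons of Gm38392, a gene model on the same strand, overlap 10.2% of the Tsacc exons. Gm38392 was at 0.577 ± 0.147 CPM in the wild-type group against 1.25 ± 0.254 CPM in the SKO group (log2 1.11, edgeR adjusted p = 0.0462). That call was lost whichever library was left out (0.90 to 1.25). How reads from the shared bases were counted is not given, and their part in the Tsacc value was not tested.

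**Figure D2:**
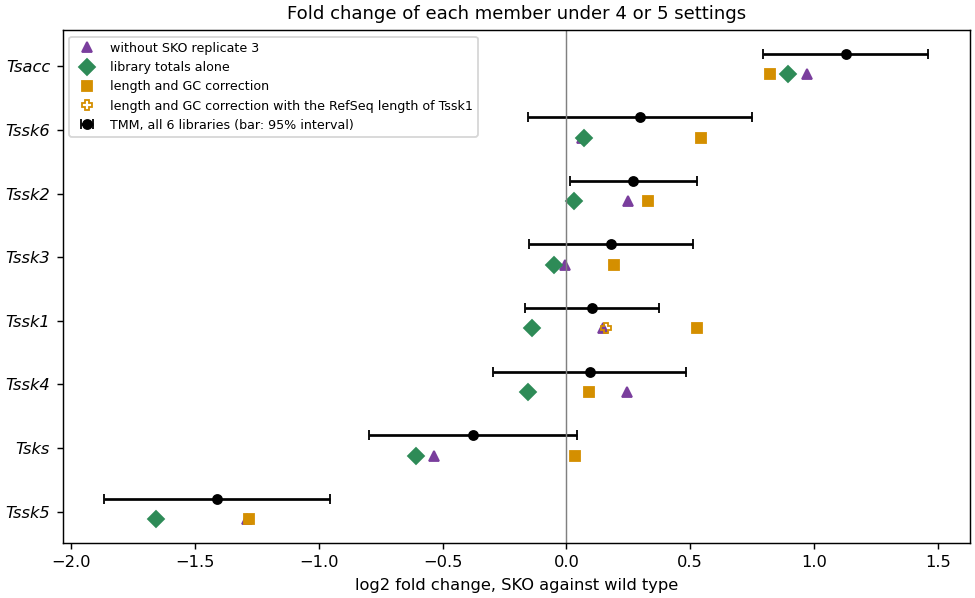
Log2 fold change of each member, SKO against wild type, in the fit of all 6 libraries (black points, bars the 95% interval) and under other settings (coloured symbols). Tsacc (1.13) and Tssk5 (-1.41) keep their side of 0 under all settings shown, while Tssk1, Tssk3, Tssk4 and Tsks take both signs.

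Levels per kilobase of exon ranked the members over a wide range in wild-type spermatids. Tssk2 was highest at 292 ± 14.3 CPM per kilobase of the union of its exons (SD, n = 3), followed by Tssk4 at 225 ± 7.87, Tssk1 at 183 ± 0.761, Tssk3 at 105 ± 6.37, Tsacc at 61.4 ± 3.93, Tsks at 42.7 ± 3.02, Tssk6 at 14.6 ± 2.43 and Tssk5 at 5.24 ± 0.337. No neighbours in that wild-type order overlapped between libraries. In SKO spermatids the mean of Tsacc, 134 ± 21 CPM per kilobase, moved above that of Tssk3, 119 ± 20.5, but their libraries overlapped, as did those of Tssk4 (240 ± 56.8) and Tssk1 (196 ± 18.7). The order rests on the length used: per kilobase of the RefSeq model, Tssk1 was at 467 ± 1.94 in wild type and above Tssk2. Per kilobase of the transcript with the longest coding sequence, Tssk4 (303 ± 10.6) and Tssk2 overlapped, and the mean of Tsacc (117 ± 7.48) was above that of Tssk3, with overlapping libraries.

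**Figure D3:**
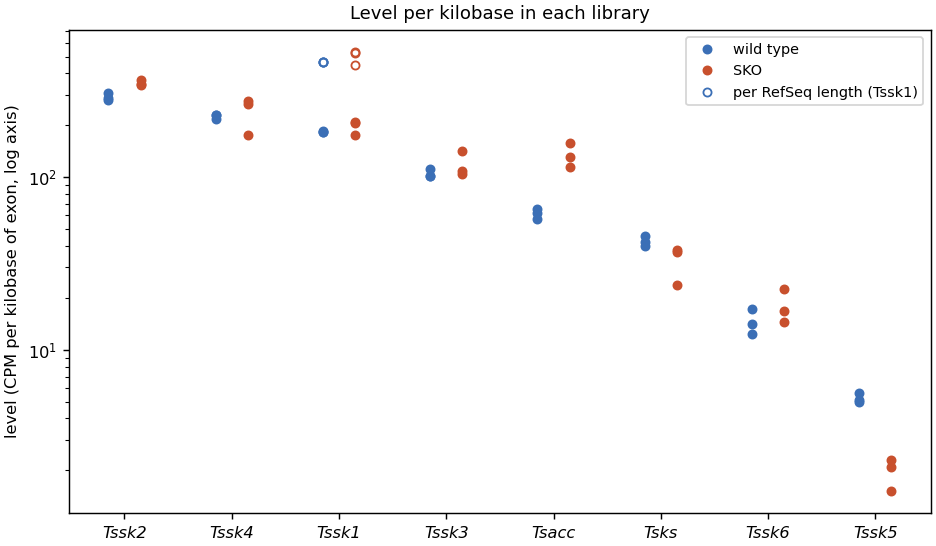
Level of each member per kilobase of exon (log axis) in each wild-type and SKO library, ordered by the wild-type mean; open circles give Tssk1 per its RefSeq length. Wild-type means run from 292 CPM per kilobase for Tssk2 to 5.24 for Tssk5.

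Likeness between genes was measured as the root mean square difference of log2 CPM over the 6 libraries, each gene centred on its own mean, so 0 would be the same pattern. Among members, Tssk1 and Tssk2 were the closest pair at 0.122 and Tssk1 and Tssk4 the next at 0.137, while Tssk5 and Tsacc, which moved in opposite directions, were farthest apart at 1.31. Of 7703 other genes, Lrrc46 (0.02) and Odf4 (0.0298) were nearest to Tssk1, and Mkrn1 (0.0192) and Rsph3a (0.0338) to Tssk2. Nearest to Tssk3 were Hnrnpab (0.0479) and Fnbp4 (0.0541), to Tssk4 Tcte2 (0.0273) and Fam71f2 (0.036), to Tssk6 Cmpk1 (0.0766) and Ube2s (0.0798), and to Tsks Smap2 (0.0415) and Clic4 (0.0475). For Tssk5 they were Adck1 (0.0582) and Grina (0.0738), and for Tsacc Them6 (0.0169) and Ssna1 (0.027). All of these distances share the same 6 libraries.

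Of 13 partners and substrates, 3 rose, 1 fell and 9 did not pass edgeR's test, with a median log2 fold change of -0.01, beside 21.2% higher and 20.9% lower among all genes. By library totals alone none of the 13 rose and 3 fell (14.3% and 28.7% of all genes), Hsp90aa1 standing at 0.22 (adjusted p = 0.12). Hsp90aa1, the inducible HSP90 chaperone that matures many kinases, had wild-type levels of 2039, 2081 and 2228 CPM and SKO levels of 2817, 3047 and 2846 CPM, without overlap, and rose by 0.46 on the log2 scale (adjusted p = 0.00985). Hspa1l, a spermatid HSP70, rose from 6.57 ± 0.872 to 15.1 ± 9.57 CPM (1.20, adjusted p = 0.027), and SKO replicate 3, at 26 CPM, was far above SKO replicates 1 and 2. The Hspa1l value was 0.52 without SKO replicate 3 (adjusted p = 0.0507), and without wild-type replicates 1, 2 and 3 it was 1.31, 1.18 and 1.12, none of which passed. Without wild-type replicate 1, none of the 13 rose by edgeR's test, Hsp90aa1 standing at 0.43 (adjusted p = 0.0661), and with wild-type replicate 2 or 3 left out 1 rose. Over all genes, 3169 of 20243 were higher without wild-type replicate 1, 3064 of 20220 without replicate 2 and 3292 of 20194 without replicate 3. Leaving out SKO replicate 3 gave 3 of the 13 that fell, in a fit that called 23.5% of genes lower. Crem, a transcriptional regulator of many spermatid genes, was the third that rose and was named after its values were seen, at 856 ± 60.7 CPM in the wild-type group and 1111 ± 128 CPM in the SKO group (0.38, adjusted p = 0.0413). The Crem call was lost when any library but SKO replicate 3 was left out (0.25 to 0.42). Hspa8, the constitutive HSC70, fell from 36.7 ± 1.74 to 22.8 ± 4.71 CPM (-0.69, adjusted p = 0.0103).

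Odf2, Spag16 and Ppp1cc, whose products these kinases are known to bind or phosphorylate, were named after their values were seen. Odf2, the outer dense fibre protein of the tail, had a wild-type level of 1391 ± 92 CPM and an SKO level of 1361 ± 104 CPM (log2 -0.03, edgeR adjusted p = 0.857), while the length and GC correction turned it to 0.39 and past the threshold (adjusted p = 0.00913). Spag16, of the axoneme's central apparatus, was at 434 ± 11.8 and 431 ± 130 CPM (-0.01, adjusted p = 0.974), its SKO spread set by replicate 3 at 288 CPM. Ppp1cc, the phosphatase catalytic subunit found with TSSK1 and TSKS, was at 926 ± 27.3 and 1129 ± 202 CPM (0.29, adjusted p = 0.146), and passed without SKO replicate 3 (0.38, adjusted p = 0.00293).

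Of 16 other kinases of male germ cells, none rose and 9 fell, with a median log2 fold change of -0.58, where 21.2% of all genes were higher and 20.9% lower. Without SKO replicate 3, 1 rose and 9 fell (21.4% and 23.5% of all genes). Cilk1, a kinase of cilia, went from 13.8 ± 1.09 down to 3.52 ± 1.35 CPM (-1.97 by edgeR, adjusted p = 0.000467), and Tesk1, a testis kinase that acts on cofilin, from 22.1 ± 1.74 to 10.6 ± 3.17 CPM (-1.06, adjusted p = 0.00348). Without wild-type replicate 2 only 3 of the 16 fell, in a fit where 3025 of 20220 genes were lower. With length and GC trends removed, 2 of these 16 rose and 2 fell (23.0% and 18.8% of all genes), and Tesk1 no longer passed (-0.33, adjusted p = 0.268). Of 17 AMPK-related kinases in the table, counting their activator Stk11, none rose and 3 fell, with a median of -0.35, against the same shares of all genes. Of these 17, 7 fell without SKO replicate 3 (23.5% of all genes) and 8 fell by library totals alone (28.7% of all genes). With the length and GC correction 1 of the 17 rose and 2 fell (23.0% and 18.8% of all genes). Brsk2, a kinase of neuronal polarity, fell from 74.9 ± 3.51 to 30.6 ± 3.52 CPM (-1.29, adjusted p = 0.000157), and Snrk from 17.1 ± 0.725 to 6.83 ± 1.02 CPM (-1.32, adjusted p = 0.000331). The difference between the members and these lists was not tested.

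**Figure D4:**
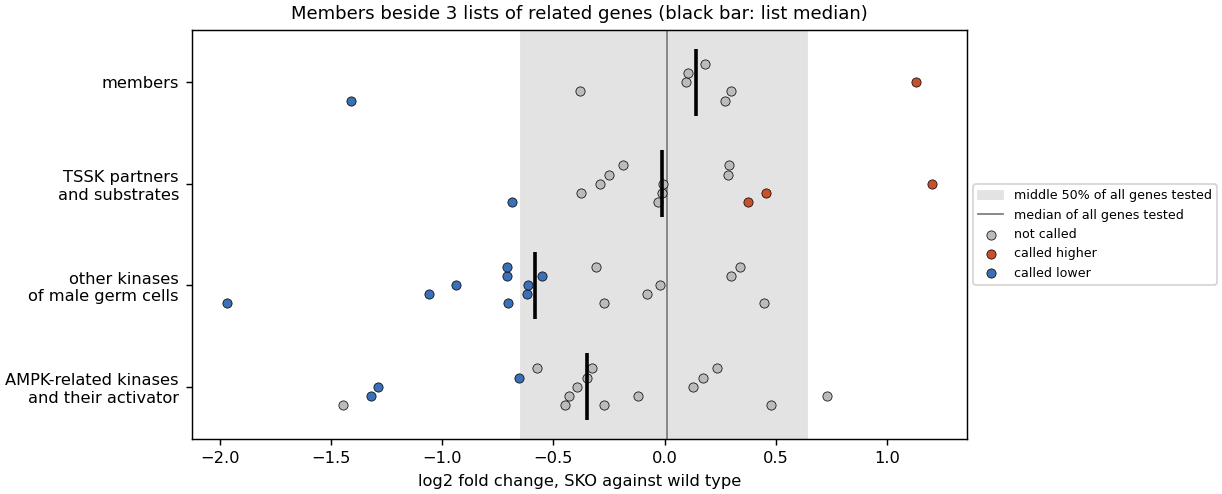
Log2 fold change of each gene, SKO against wild type, for the 8 members and 3 lists of related genes; black bars are list medians, the grey band the middle 50% of all genes tested. The members' median lies at 0.14, the other germ cell kinases' at -0.58 and the AMPK-related kinases' at -0.35.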

How the data were processed

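Poly(A) RNA of 6 libraries of sorted round spermatids was measured by Smart-seq2. The submitters' processing notes name Trim Galore 0.6.4, HISAT2 2.0.5, featureCounts 1.5.0-p3 and the build GRCm38 (mm10); the annotation, the strand setting and the handling of multiple matches were not given in the sources used here. The authors deposited whole-number counts per gene. Genes were filtered with filterByExpr, scaled with TMM and tested with edgeR 4.0.16 (R 4.3.3; quasi-likelihood test, 2-sided, Benjamini-Hochberg over all 19776 genes, called under 0.05). CPM use TMM-scaled totals. DESeq2 1.42.0, limma 3.58.1 (voom), other scalings and filters, a per-library loess on message length and GC content, a replicate block and leaving out each library were alternatives. The scripts were tested on simulated data. Pairs of replicates differed by more than counting noise (chi-square per degree of freedom 14.2 to 141), so none was treated as another's library deposited again. Positions, lengths and coding sequences are from GENCODE M21, promoters from RefSeq.

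The members and gene lists were chosen with earlier results of these data known. Genes named are Eif5a, the members, genes overlapping them, up to 2 called genes in each direction per list by adjusted p, and the 2 genes most like each member among those with a mean of at least 5 CPM, clone names left out; Crem, Odf2, Spag16, Ppp1cc and the neighbouring genes were added after their values were seen. Protein sequences were not used here, and 1 further gene is not reported here. 4 AMPK-related and 5 Sertoli cell genes on the lists were not analysed here. Of other marker lists, only 4 of 6 spermatogonium, 3 of 5 macrophage and 2 of 5 peritubular and vascular markers were tested.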

Additional observations from a re-analysis of the deposited data

How the results depend on the processing

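The calls of Tsacc and Tssk5 held under all alternatives run. Leaving out 1 library at a time gave log2 fold changes of 0.03 to 0.15 for Tssk1, 0.22 to 0.31 for Tssk2, -0.005 to 0.24 for Tssk3, -0.056 to 0.25 for Tssk4, -1.55 to -1.29 for Tssk5, 0.06 to 0.43 for Tssk6, -0.54 to -0.22 for Tsks and 0.97 to 1.21 for Tsacc. It gave 3064 to 4329 genes higher and 3025 to 4766 lower, 1 to 3 members higher and 1 to 2 lower, 0 to 3 partners higher and 1 to 3 lower, 0 to 1 germ cell kinases higher and 3 to 9 lower, and 3 to 7 AMPK-related kinases lower. The range crossed 0 for Odf2 (-0.12 to 0.023), Spag16 (-0.24 to 0.18), Dgcr2 (-0.162 to 0.238), Bsdc1 (-0.053 to 0.197) and Cct3 (-0.015 to 0.094). In fits that leave 2 libraries in a group, these are taken to vary like the rest.

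By library totals alone Tssk1 was at -0.14, Tssk3 at -0.05, Tssk4 at -0.15, Tsks at -0.61 (adjusted p = 0.0358), Dgcr2 at -0.089, Bsdc1 at -0.115 and Cct3 at -0.19, with 2 members lower, 0 partners higher and 3 lower, and 8 AMPK-related kinases lower. Library totals called 14.3% of all genes higher and 28.7% lower. A minimum of 5 CPM in 3 libraries, which leaves 10279 genes, gave 3072 higher and 2742 lower, 2 members higher, Tssk2 at 0.30 (adjusted p = 0.0424) and Spag16 at 0.013. The length and GC correction gave 4 members higher (3 with the RefSeq length of Tssk1), 2 germ cell kinases higher and 2 lower, 1 AMPK-related kinase higher, and values of 0.53 for Tssk1, 0.33 for Tssk2, 0.54 for Tssk6, 0.034 for Tsks, 0.39 for Odf2 (reversed, adjusted p = 0.00913), 0.656 for Dgcr2 (adjusted p = 0.0085), 0.487 for Bsdc1 (adjusted p = 0.024) and 0.008 for Spag16. That correction called 23.0% of all genes higher and 18.8% lower. DESeq2 gave 2 partners lower, beside 4548 of all 19776 genes. Upper quartile factors put Odf2 at 0.004 and Spag16 at 0.021. Apart from the length used for Tssk1, what moved these values and calls was not tested.

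Replicate numbers did not pair the libraries: same-numbered libraries had correlations of -0.022, -0.051 and -0.065. With the replicate block, 3552 genes were higher and 3666 lower, Tsacc was at 1.12 (adjusted p = 0.00136) and Tssk5 at -1.43 (adjusted p = 0.00173); the calls of Crem, Gm38392 and Yjefn3 were lost (adjusted p = 0.117, 0.0811 and 0.11) and no other call of a gene named changed. Tssk5, at 159 to 727 counts, is the member that depth limits most.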

Other observations

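The nearest genes to the members were named after their values were seen. Fam229a, 167 bases from Tssk3 on the opposite strand, had wild-type levels of 281 ± 17.2 CPM and SKO levels of 614 ± 205 CPM, and rose by 1.13 on the log2 scale (edgeR, adjusted p = 0.00225), where Tssk3 was at 0.18 and did not pass. Cct3, a chaperonin subunit gene 116 bases from Tsacc on the opposite strand, was at 621 ± 21.3 and 647 ± 58.1 CPM (0.06, adjusted p = 0.73), where Tsacc rose. Hgh1, 514 bases from Tssk5, fell from 39.4 ± 2.91 to 20.5 ± 1.4 CPM (-0.94, adjusted p = 0.000778), the direction of Tssk5. Cpt1c, a brain-type carnitine palmitoyltransferase gene 1336 bases from Tsks, fell from 46.7 ± 9.47 to 21.7 ± 5.61 CPM (-1.11, adjusted p = 0.0036), where Tsks (-0.38) did not pass. Bsdc1, 515 bases from Tssk3, was at 23.4 ± 2.08 and 25.3 ± 4.24 CPM (0.12, adjusted p = 0.612). Ess2, 684 bases from Tssk2, fell from 41 ± 0.658 to 27.1 ± 7.44 CPM (-0.60, adjusted p = 0.0348), a call lost without SKO replicate 2 or any 1 of the wild-type replicates (-0.61 to -0.59) and with the length and GC correction (-0.12). Gatad2a, 3557 bases from Tssk6, fell from 53.5 ± 5.9 to 32.6 ± 4.74 CPM (-0.71, adjusted p = 0.0064), and did not pass with the length and GC correction (-0.15).

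Tssk1, Tssk2 and Tssk6 have no intron. Of 436 autosomal coding genes with 1 exon, 82 rose and 77 fell in SKO (median log2 fold change 0.01), and of 12371 with more exons 2464 rose and 2892 fell (median -0.05). These counts hold for TMM scaling, and other scalings were not run for them.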
